A study of Mus musculus with 5 samples.

Results

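The genes described are 31 genes of cholesterol and fatty acid metabolism, taken by symbol from a fixed list and read from the 23337 genes in the count files. They comprised 14 enzymes of sterol synthesis, 6 genes of sterol sensing and transport, 5 of fatty acid synthesis and elongation, 4 desaturases and 2 exporters of sterol. All 31 had a row in the files, where Msmo1 is listed under its older symbol Sc4mol. The libraries were poly(A) RNA sequencing of OT-I CD8+ T cells recovered from B16-OVA melanomas, in mice given either an antibody that blocks PD-L1 (2 libraries) or a control rat IgG2b (3 libraries). OT-I cells carry a transgenic receptor for an ovalbumin peptide, and B16-OVA is a melanoma line that makes ovalbumin. In both groups the strain of the cells was C57BL/6J CD45.1 OT-I, from donors aged 6 to 12 weeks, and the cells had been activated in culture through CD3 and CD28 and kept in low-dose interleukin-2 until transfer on day 5 to 6. Antibody was given at 200 µg per mouse, 3 and 6 days after transfer, and tumors were taken on day 8 or once they measured 1.2 cm across. Each library pooled tumors of several mice of its group, so a library is a pool and not an animal, and the p-values measure the spread between pools. The strain, sex and age of the recipient mice are not stated in the labels. The transferred cells shared 1 T cell receptor and were already activated, which limits them as a model of a host's own response.

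Cells make cholesterol from acetyl-CoA through mevalonate, squalene and lanosterol. When sterol in the endoplasmic reticulum is low, SCAP escorts the factor SREBP-2 to the Golgi apparatus, where it is cut and released to switch on the genes of this route. INSIG-1 holds SCAP back when sterol is plentiful, and the liver X receptors then switch on the exporters ABCA1 and ABCG1. SREBP-1, from Srebf1, drives mainly the genes that build and desaturate fatty acids. T cells that are activated and divide draw on both routes for new membrane.

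The libraries held 9985943 to 12830485 counts assigned to genes. The library numbered 1 of either group stood apart from the rest, with 11696 and 11977 genes detected against 13564 to 13801. Markers of T cells were present in every library, with a sum over 9 markers of 8865 to 10616 CPM (a gene's counts scaled to a common total of gene-assigned counts). The sum over 5 B cell markers was 1.30 to 6.49 CPM, most of it from Cd79b, and Pax5 had 0 counts in all 5 libraries. The sum over 8 markers of fibroblasts and endothelium was 28.5 to 58.3 CPM, most of it from Pecam1, and Col3a1, Dcn, Cdh5 and Kdr had 0 counts in all 5 libraries. The sum over 8 melanoma markers was 6.86, 379 and 118 CPM in Control IgG replicates 1, 2 and 3, and 49.7 and 130 CPM in anti-PD-L1 replicates 1 and 2. The sum over 12 myeloid markers was 313, 206 and 154 CPM in the controls and 119 and 211 CPM after anti-PD-L1. In such bulk samples, fewer cells of a type and less RNA per cell cannot be told apart.

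Of the 31 genes, 30 passed the filter on low counts and were tested. Scd1 did not. None of the 30 passed an adjusted p of 0.05 in edgeR's quasi-likelihood test, the background being 0% of the 11299 genes tested in either direction, and each of the 30 had an adjusted p of at least 0.9999. DESeq2 called 0 of them too, as did limma-voom. At an unadjusted p under 0.05 there were 0 of the 30, against 2.13% of all tested genes. The smallest unadjusted p-values in edgeR were 0.0594 for Abca1 and 0.0595 for Fads1. The median standard error over all tested genes was 0.38 on the log2 scale. Control IgG replicate 1 was the lowest of the 5 libraries for 11 of the 30 genes, against 37.7% of all tested genes, and anti-PD-L1 replicate 1 for 10 of the 30, against 33.1%.

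**Figure D1:**
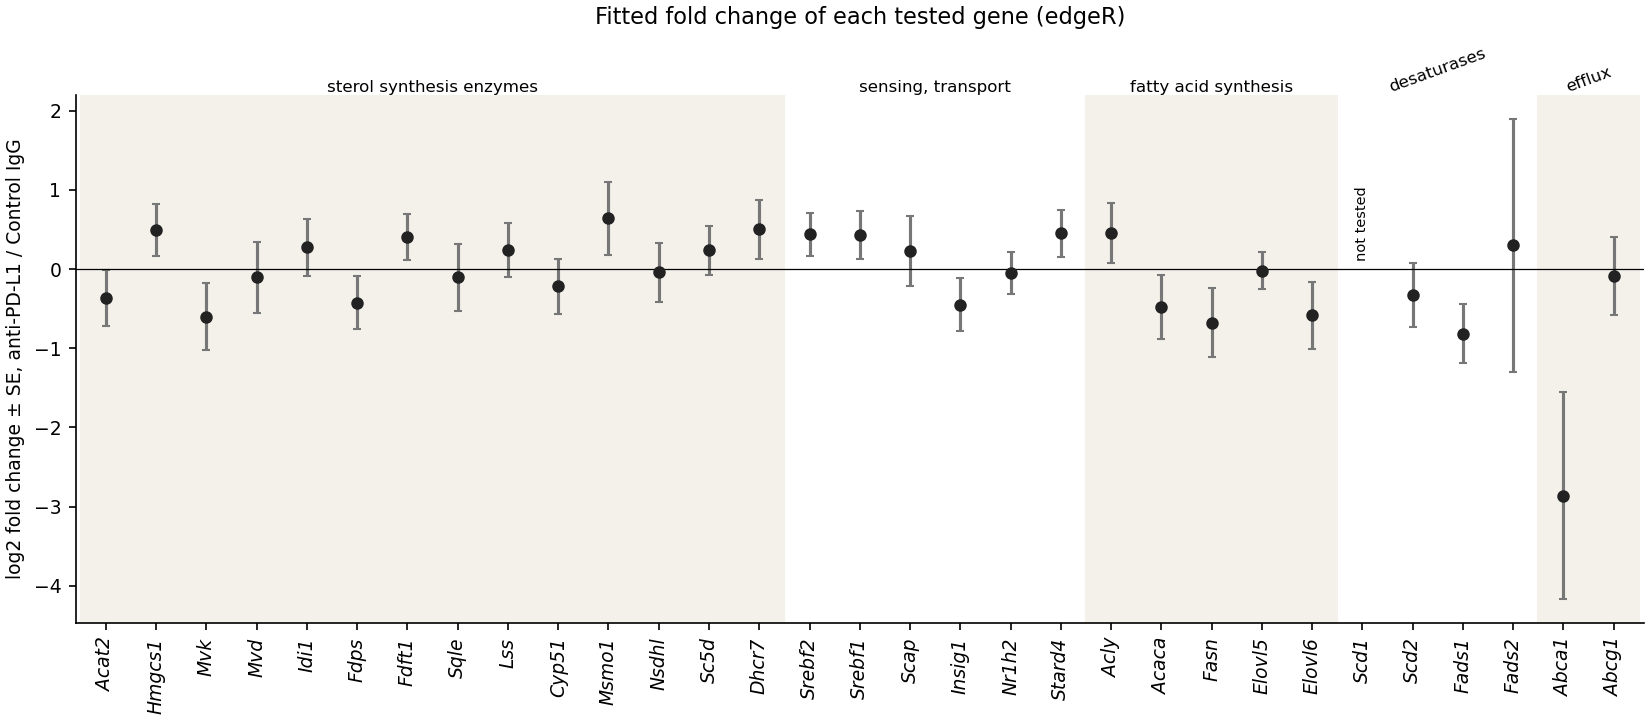
Fitted log2 fold change of anti-PD-L1 over Control IgG for each gene, in edgeR, with points for the estimate and bars for 1 standard error, grouped by role. Estimates lie on both sides of 0 among the sterol enzymes, 5 of the 8 tested fatty acid and desaturase genes lie at -0.32 or lower, and Abca1 at -2.86 has the widest bar but for Fads2.

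Levels between genes were compared as counts per kb of exon, where the length is that of all annotated exons of the gene. These values were then scaled in each library to a common total over the genes with a length, so they are not CPM divided by length. By the mean over the 5 libraries, Acly, which makes cytosolic acetyl-CoA from citrate, stood first at 80.7. Nr1h2, which encodes liver X receptor beta, followed at 80.0, then the farnesyl diphosphate synthase Fdps at 64.4, Elovl5 at 63.8, the isopentenyl diphosphate isomerase Idi1 at 59.0 and the lanosterol demethylase Cyp51 at 54.4. These neighbours did not differ beyond their spread over libraries, since Acly alone ranged from 39.7 to 118. At the foot were Acaca at 4.38, Abca1 at 0.724, Fads2 at 0.503 and Scd1 at 0.169. Between the factors Srebf1 at 40.5 and Srebf2 at 39.8 there was no difference beyond the spread. Of the stearoyl-CoA desaturases, Scd2 at 12.3 was the form these cells expressed, and Scd1 was listed at 0 counts in both libraries numbered 1.

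**Figure D2:**
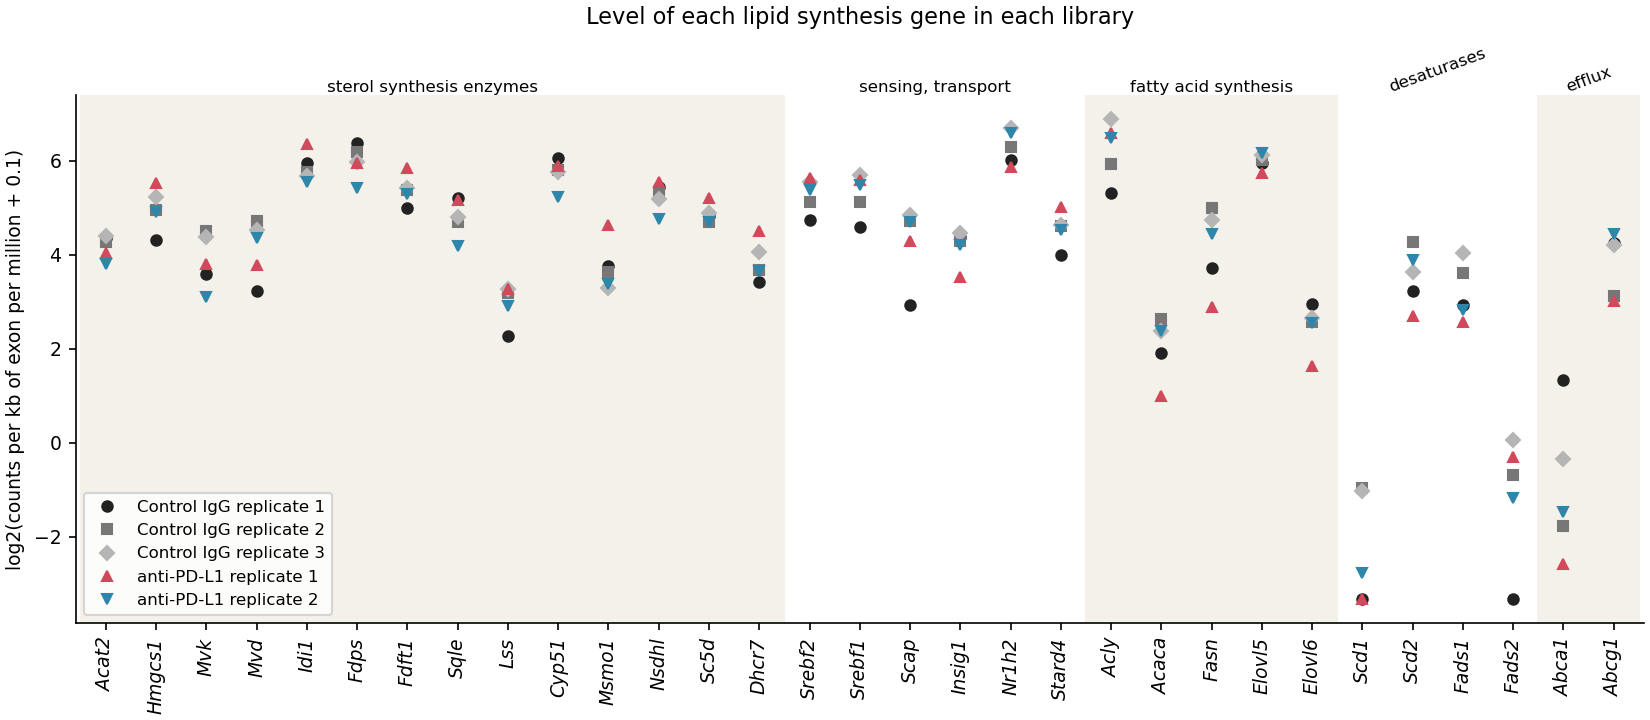
Level of each gene in each library, as log2 of the scaled counts per kb of exon plus 0.1. Genes lie along the horizontal axis in the order of their roles, with 1 symbol per library. Acly, Nr1h2 and Fdps are at the top, Scd1, Fads2 and Abca1 lie far below the rest, and the symbols of the libraries numbered 1 are often the outer ones.

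Sterol synthesis enzymes were high in anti-PD-L1 replicate 1 and low in replicate 2, on either side of the controls. Replicate 1 lay above every control for 8 of the 14, namely Hmgcs1, Idi1, Fdft1, Lss, Msmo1, Nsdhl, Sc5d and Dhcr7, where the background over all tested genes was 21.2%. Replicate 2 lay below every control for 7 of the 14, namely Acat2, Mvk, Idi1, Fdps, Sqle, Cyp51 and Nsdhl, against a background of 19.3%, and above every control for 0 of them, against 23%. The summed level of the 14 was 677, 639 and 629 CPM in Control IgG replicates 1, 2 and 3, then 829 and 494 CPM in anti-PD-L1 replicates 1 and 2. So the control sums lay close together and the anti-PD-L1 sums lay on opposite sides of them. The fitted fold change was above 0 for 7 and below 0 for 7, with a median of 0.10, while over all tested genes 48.1% lay above 0, 51.9% below, and the median was -0.02. The median of the 14 was -0.32 when anti-PD-L1 replicate 1 was left out and 0.48 when replicate 2 was, a single treated pool remaining in either case.

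Promoters of these enzymes are shown because most of them share a short element. SREBP factors bind sterol regulatory elements and act with the factor NF-Y, which binds CCAAT boxes. In the RefSeq windows on GRCm38.p6, from 250 bases before to 50 after each annotated start, 23 of the 31 genes had at least 1 window, 11 of them sterol enzymes. The letters CCAAT were found on either strand in 10 of those 11 sterol enzymes (90.9%), in 3 of 5 fatty acid synthesis and elongation genes (60%) and in 41.1% of the 27025 genes with a window. The sterol element TCACNCCAC was found in 1 of the 11, Hmgcs1, and in 1.44% of all genes with a window. The E-box CACGTG, whose reverse strand reads the same, was found in 2 of the 11, Sc5d and Dhcr7, and in 8.09% of all genes. For the direct repeat bound by liver X receptors, only a strict form was searched, and it was found in 0 of the 23 genes and in 0.0148% of all genes. For the sterol element too, only the 1 form given was searched. Looser forms of this repeat and of the sterol element were not searched, so these counts cannot show whether the genes lack either element. A match is a description of letters in this window. Genes with several windows were counted once, as having a match if any window had one, and none of the searched motifs contains another. The 250 bases before the start of Hmgcs1 (chr13:119690101-119690350, plus strand), Mvk (chr5:114444019-114444268, plus strand), Idi1 (chr13:8885356-8885605, plus strand) and, for comparison and chosen after its values were seen, the fatty acid synthase gene Fasn (chr11:120824548-120824797, minus strand) are printed 5′ to 3′ along the gene. Capitals mark CCAAT boxes on either strand and, in Hmgcs1, also the sterol element, which begins at position -137 from the start.
Hmgcs1: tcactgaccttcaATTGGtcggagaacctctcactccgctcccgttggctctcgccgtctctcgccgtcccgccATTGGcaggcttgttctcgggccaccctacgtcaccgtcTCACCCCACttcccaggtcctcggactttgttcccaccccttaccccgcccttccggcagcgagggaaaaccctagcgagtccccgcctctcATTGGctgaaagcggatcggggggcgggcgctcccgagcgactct
Mvk: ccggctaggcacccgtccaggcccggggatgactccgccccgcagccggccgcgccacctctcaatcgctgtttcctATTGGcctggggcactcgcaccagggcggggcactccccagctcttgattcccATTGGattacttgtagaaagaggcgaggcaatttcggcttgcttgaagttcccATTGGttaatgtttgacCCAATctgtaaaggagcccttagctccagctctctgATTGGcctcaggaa
Idi1: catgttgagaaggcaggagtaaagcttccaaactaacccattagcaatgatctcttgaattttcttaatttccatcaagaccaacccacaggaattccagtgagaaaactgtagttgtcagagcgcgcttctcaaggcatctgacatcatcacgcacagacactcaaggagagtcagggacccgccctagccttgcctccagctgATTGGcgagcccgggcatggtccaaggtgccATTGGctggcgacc
Fasn: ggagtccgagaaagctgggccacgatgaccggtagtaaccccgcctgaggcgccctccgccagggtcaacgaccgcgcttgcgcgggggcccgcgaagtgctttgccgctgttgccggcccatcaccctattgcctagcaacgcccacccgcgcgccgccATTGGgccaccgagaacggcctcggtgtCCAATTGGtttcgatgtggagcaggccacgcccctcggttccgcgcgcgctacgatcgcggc
Hmgcs1 carried 3 CCAAT boxes in the printed stretch, at positions -237, -176 and -45, beside the sterol element, and 1 more at 11 after the start. Mvk had 5, from -173 to -14. Idi1 had 2, at -45 and -14. Fasn had 3, of which the boxes at -62 and -59 overlap on opposite strands.

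In the mevalonate part of the route, Acat2, the thiolase that joins 2 acetyl-CoA, stood at 19.1, 17.0 and 18.3 CPM in Control IgG replicates 1, 2 and 3, and at 15.3 and 12.2 CPM in anti-PD-L1 replicates 1 and 2. It was the only sterol enzyme for which both anti-PD-L1 pools lay below every control, and they did not after scaling by TMM factors. Its log2 fold change was -0.37 ± 0.35 (SE). Hmgcs1, the synthase that commits the chain to mevalonate, stood at 33.2, 49.4 and 58.4 CPM in the controls and at 78.1 and 48.1 CPM after anti-PD-L1. Only replicate 1 lay above the controls, and the fold change was 0.50 ± 0.33. Mvk, mevalonate kinase, stood at 11.7, 20.9 and 18.8 CPM and at 13.6 and 7.87 CPM, with only replicate 2 below the controls and a fold change of -0.60 ± 0.42. Mvd, the decarboxylase that follows, stood at 6.37 to 16.9 CPM in the controls, with both anti-PD-L1 pools inside that range. Idi1 stood at 79.4, 66.0 and 61.2 CPM and at 105 and 56.8 CPM, so that its anti-PD-L1 pools were the highest and the lowest of the 5. Fdps stood at 128, 107 and 89.9 CPM and at 95.7 and 62.1 CPM, with the highest value in Control IgG replicate 1. On GRCm38 the exons of Fdps share 1124 bases with Gm43738 on the same strand, so its count is uncertain.

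In the squalene part, Fdft1, squalene synthase, stood at 49.1, 60.5 and 61.9 CPM in the controls and at 88.3 and 57.0 CPM after anti-PD-L1, with a log2 fold change of 0.40 ± 0.29. Replicate 1 was the highest of the 5 pools and replicate 2 lay among the controls. Its exons share 774 bases with Ctsb, on the opposite strand, and this library chemistry does not tell strands apart. Exons on the opposite strand also overlap Scap (985 bases), Hmgcs1 (557), Lss (381), Idi1 (323), Cyp51 (166), Srebf1 (109) and Elovl6 (34). The same limit holds for their counts. Sqle, squalene epoxidase, stood at 74.9, 49.4 and 52.4 CPM and at 72.4 and 34.7 CPM, so that the 2 libraries numbered 1 were the highest. Lss, lanosterol synthase, stood at 18.8, 33.7 and 35.3 CPM and at 37.9 and 27.8 CPM, with its lowest value in Control IgG replicate 1. The fold changes of these last 2 genes were -0.10 ± 0.42 and 0.24 ± 0.34.

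After lanosterol, Cyp51 stood at 108, 84.8 and 81.5 CPM in the controls and at 95.9 and 57.2 CPM after anti-PD-L1. Replicate 1 was among the controls and replicate 2 below them. Msmo1, which removes methyl groups from the sterol ring, stood at 30.5, 26.2 and 20.4 CPM and at 55.5 and 22.0 CPM. Its replicate 1 value was the farthest above the controls of any sterol enzyme, at 1.10 on the scale of log2(CPM + 1) minus the control mean, and replicate 2 lay within the controls. The fitted log2 fold change of 0.64 ± 0.46 therefore comes from 1 pool. Nsdhl, which works with Msmo1, stood at 45.5, 38.7 and 35.5 CPM and at 48.8 and 26.6 CPM, the highest and lowest of the 5. Sc5d, a desaturase of the sterol ring, stood at 50.2, 43.6 and 48.9 CPM and at 65.4 and 43.6 CPM. Dhcr7, the reductase of the last step to cholesterol, stood at 22.8, 25.5 and 32.7 CPM and at 47.9 and 25.1 CPM, a fold change of 0.50 ± 0.37. For Sc5d and Dhcr7 too, only replicate 1 lay outside the controls.

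Genes of dividing cells were also low in anti-PD-L1 replicate 2. The sum over 12 of them was 3739, 4050 and 4487 CPM in the controls, then 4232 and 3261 CPM after anti-PD-L1, and replicate 2 lay below every control for 10 of the 12 (background 19.3%). Replicate 1 lay above every control for 6 of the 12 (background 21.2%). Their part in the sterol values was not tested.

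**Figure D3:**
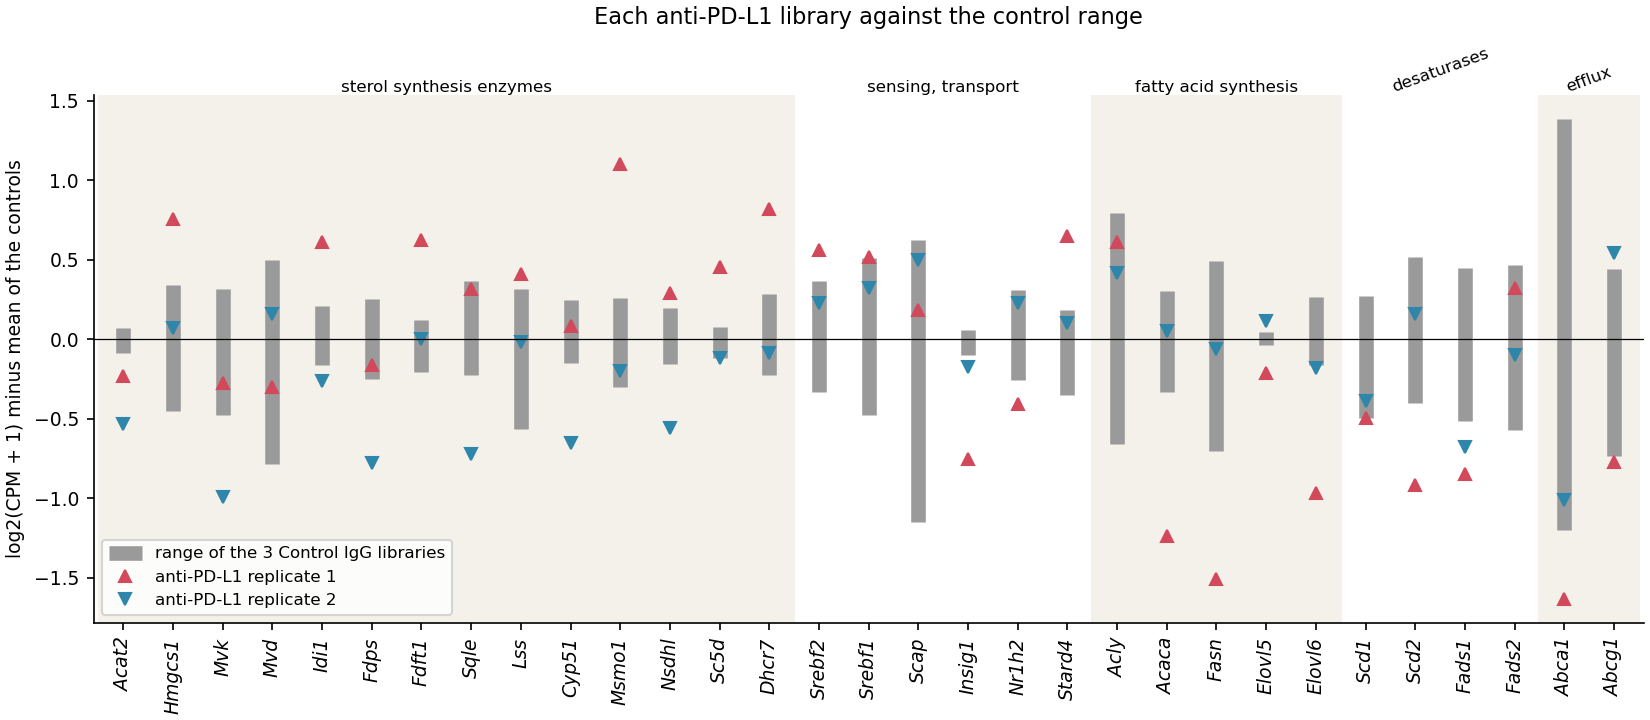
Each anti-PD-L1 library (triangles) against the range of the 3 Control IgG libraries (grey bars), per gene, as log2(CPM + 1) minus the mean of the controls. Replicate 1 lies above the bars for 8 of 14 sterol enzymes and below them for 6 of the 8 tested fatty acid and desaturase genes, and replicate 2 lies below them for 7 sterol enzymes.

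Among the genes of sterol sensing, Srebf2 lay above the controls in anti-PD-L1 replicate 1, and Insig1 lay below them in both anti-PD-L1 pools. Srebf2, which encodes SREBP-2, stood at 70.2, 86.5 and 114 CPM in the controls and at 131 and 104 CPM after anti-PD-L1, with a log2 fold change of 0.44 ± 0.27. Replicate 1 lay above the controls and replicate 2 among them. Srebf1 stood at 49.6, 67.9 and 99.1 CPM and at 99.7 and 87.1 CPM, with a fold change of 0.43 ± 0.30. Control IgG replicate 1 held the lowest value of both factors. With it removed the fold changes were 0.35 for Srebf2 and 0.28 for Srebf1. Insig1, itself a target of SREBP-2 and the anchor that retains SCAP, stood at 23.5, 21.0 and 23.2 CPM in the controls and at 13.0 and 19.9 CPM after anti-PD-L1. Both anti-PD-L1 pools lay below every control, also after scaling by TMM factors, with a fold change of -0.45 ± 0.33. Over all tested genes the background of both pools lying below every control was 10.8%, or 9.58% after that scaling, and of both lying above 6.94%. Of the 30 tested genes, 4 lay so below and 0 above.

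Scap stood at 20.5, 67.6 and 72.2 CPM in the controls and at 53.2 and 66.2 CPM after anti-PD-L1. Its spread lay within the control group, from the low value of Control IgG replicate 1. Nr1h2 stood at 79.5, 91.5 and 118 CPM and at 71.7 and 112 CPM, a log2 fold change of -0.05 ± 0.26. Stard4, which carries sterol between membranes in the cytosol, stood at 32.4, 46.9 and 47.3 CPM and at 65.8 and 44.8 CPM. As for the sterol enzymes Hmgcs1 and Dhcr7, Stard4 lay above the controls in anti-PD-L1 replicate 1 only, and its fold change was 0.45 ± 0.30. The 6 genes had a median of 0.33, with 4 above 0 and 2 below. That median was 0.09 with Control IgG replicate 1 removed and 0.16 with anti-PD-L1 replicate 1 removed.

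Fatty acid genes lay the other way from the sterol enzymes in anti-PD-L1 replicate 1. This pool lay below every control for 6 of the 8 tested genes of fatty acid synthesis, elongation and desaturation, where the background was 35.7%, and above every control for 0 (background 21.2%). With CPM scaled by TMM factors, it lay below for 5 of the 8 and above for 1, against backgrounds of 30.6% and 26.3% on that scale. Replicate 2 lay below every control for 2 of the 8 and above for 1, against backgrounds of 19.3% and 23%. On the TMM scale it lay below for 1 and above for 0, against 20.9% and 21.7%. The median fold change of the 8 was -0.40, with 6 below 0 and 2 above. Left with replicate 1 as the only treated pool it was -0.83, left with replicate 2 it was -0.09, and with Control IgG replicate 2 removed it was -0.22.

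Fasn, the synthase that builds palmitate, stood at 52.3, 121 and 99.6 CPM in Control IgG replicates 1, 2 and 3, and at 29.5 and 82.1 CPM in anti-PD-L1 replicates 1 and 2. The 2 libraries numbered 1 were the lowest, and replicate 2 lay among the controls. Its log2 fold change was -0.68 ± 0.44, and -0.17 without anti-PD-L1 replicate 1. Acaca, the carboxylase that makes malonyl-CoA for Fasn, stood at 23.0, 36.4 and 29.9 CPM and at 11.8 and 30.3 CPM. Again the libraries numbered 1 were the lowest, and the fold change of -0.48 ± 0.40 was -0.01 without anti-PD-L1 replicate 1. Elovl6, which lengthens palmitate, stood at 18.0, 13.1 and 13.6 CPM and at 7.08 and 12.9 CPM. Both anti-PD-L1 pools lay below the controls, replicate 2 by a small margin that was gone after scaling by TMM factors, and the fold change was -0.59 ± 0.42.

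Acly was high in anti-PD-L1 replicate 1, where Fasn and Acaca were low, and Elovl5 lay only slightly below the controls there. Acly, whose acetyl-CoA feeds both routes, stood at 77.1, 111 and 213 CPM in the controls and at 187 and 163 CPM after anti-PD-L1. Its anti-PD-L1 values lay within the wide control range, and the log2 fold change was 0.46 ± 0.38. Elovl5, an elongase of polyunsaturated fatty acids, varied little across controls, at 79.7, 78.3 and 83.1 CPM, and stood at 69.3 and 87.1 CPM after anti-PD-L1. Its fold change was -0.02 ± 0.24.

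Of the desaturases, Fads1, which adds a double bond to polyunsaturated fatty acids, stood at 13.2, 20.2 and 26.6 CPM in the controls and at 10.3 and 11.7 CPM after anti-PD-L1. Both anti-PD-L1 pools lay below every control with either scaling, though close to Control IgG replicate 1. The log2 fold change was -0.82 ± 0.37, it ran from -0.99 to -0.59 as each library was left out in turn, and it was -0.99 without both libraries numbered 1. Fads2, its neighbour on chromosome 19, had 0, 6 and 13 counts in the controls and 10 and 5 after anti-PD-L1, too few to place. Scd2 stood at 18.7, 36.2 and 23.0 CPM and at 12.8 and 28.0 CPM, with only replicate 1 below the controls and a fold change of -0.32 ± 0.40. Scd1, on the same chromosome, had 0, 7 and 8 counts in the controls and 0 and 1 after anti-PD-L1. A count of 0 allows up to 0.242 CPM in the control library and 0.259 CPM in the treated one, for counting error only, since these reads carry no molecular tags. The low group thus rested on Fasn, Acaca, Elovl6 and Scd2 in replicate 1 alone or mostly, and on Fads1 in both pools.

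The libraries numbered 1 had lower values for long genes in general. Over the 2594 tested genes with 7 kb or more of exon, the median of log2(CPM + 1) minus the control mean was -0.39 for the control library numbered 1 and -0.25 for the anti-PD-L1 library numbered 1, against 0.16 to 0.23 in the other 3 libraries. Acaca (17.1 kb) and Fasn (10.9 kb) are in that class, whereas Elovl6 (6.43 kb), Scd2 (5.46 kb) and Fads1 (4.81 kb) are not. In the 7030 tested genes of 2 to 7 kb, which hold those 3, the medians were -0.15 and -0.14 in the libraries numbered 1 and 0.05 to 0.09 in the other 3. Lss (10.8 kb), Abca1 (10.4 kb), Scap (7.44 kb), Abcg1 (7.30 kb) and Srebf2 (7.18 kb) also have 7 kb or more of exon. The part of length in the values of any of these genes was not tested. Fasn was highest in Control IgG replicate 2, the library with the highest sum of melanoma markers, and their part in its value was not tested.

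Within each library, the ratio of the summed sterol enzymes to the summed fatty acid genes did not follow treatment. It was 2.40, 1.53 and 1.28 in Control IgG replicates 1, 2 and 3, and 2.52 and 1.19 in anti-PD-L1 replicates 1 and 2. The 2 libraries numbered 1 had the highest ratios, 1 in each group, and anti-PD-L1 replicate 2 had the lowest. From sums of counts per kb of exon, the ratio was 3.095, 2.229 and 1.732 in the controls and 2.996 and 1.578 after anti-PD-L1. The order of the 2 highest thus turned. Acly carries much of the fatty acid sum, and without it the ratio was 3.30, 2.09 and 2.27 in the controls and, after anti-PD-L1, 5.86 and 1.96. In Control IgG replicate 1 the ratio came from a low fatty acid sum, at 282 CPM against 418 and 490 CPM in the other controls. In anti-PD-L1 replicate 1 it came from both sides, with the highest sterol sum of the series and a fatty acid sum of 329 CPM against 416 CPM in replicate 2.

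**Figure D4:**
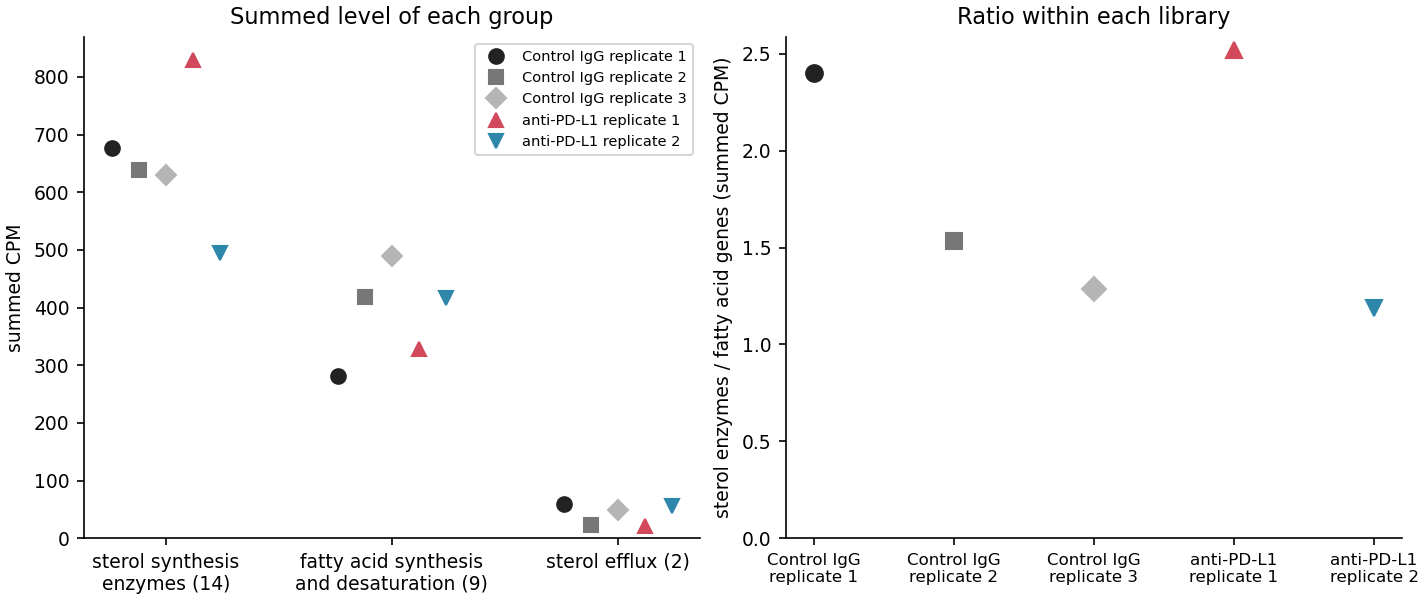
Left, summed CPM of the 14 sterol enzymes, the 9 fatty acid and desaturase genes and the 2 exporters in each library. Right, the ratio of the sterol sum to the fatty acid sum within each library, in which Control IgG replicate 1 at 2.40 and anti-PD-L1 replicate 1 at 2.52 stand above the other 3 libraries at 1.19 to 1.53.

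Neither exporter separated the groups. Abca1, which hands cholesterol to lipid-poor apolipoproteins, had 114, 7 and 30 counts in Control IgG replicates 1, 2 and 3, or 9.20, 0.701 and 2.44 CPM, and 3 and 12 counts after anti-PD-L1, or 0.259 and 0.935 CPM. The control mean rested on the first of these libraries, and replicate 2 of the treated group lay among the controls. The log2 fold change was -2.86 ± 1.31, it was -1.31 without Control IgG replicate 1, and -0.76 without both libraries numbered 1. The sum over the 12 myeloid markers was also highest in that library, at 313 CPM against 119 to 211 CPM elsewhere, and its part in the Abca1 value was not tested. The markers did not all move together, since C1qa was highest there at 29.8 CPM, whereas Adgre1 was lowest there at 1.13 CPM and Mrc1 had 0 counts, these 3 being named after their values were seen. Abcg1, which exports sterol to high-density lipoprotein, stood at 50.7, 21.9 and 45.8 CPM in the controls and at 21.3 and 54.6 CPM after anti-PD-L1. By CPM its anti-PD-L1 pools were the lowest and the highest of the 5, with a fold change of -0.09 ± 0.49. After scaling by TMM factors, both pools lay within the control range. Compared per kb of exon, Abcg1 at 15.1 was the main exporter of the pair in these cells.

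Genes of the same routes outside the 31 also passed no test over all genes. Of 12 further sterol and isoprenoid enzymes, 6 had a fold change above 0 and 6 below, with a median of -0.08. The 2 with the smallest p were Pdss2, which makes the tail of coenzyme Q, at -0.84 ± 0.47 and the phosphomevalonate kinase Pmvk at -0.50 ± 0.29. Of 9 further sensing genes, 7 lay above 0 and 2 below, with a median of 0.22. Those below 0 were also the 2 of smallest p. They were Nr1h3, which encodes liver X receptor alpha, at -2.91 ± 1.43 and Tmem97 at -0.45 ± 0.36. Nr1h3 stood at 2.42, 2.20 and 1.62 CPM in the controls and at 0 and 0.546 CPM after anti-PD-L1, so that both anti-PD-L1 pools lay below the controls at a level near the floor of 3 counts.

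Uptake was not among the 31 genes, and 14 genes of sterol uptake, storage and trafficking were read beside them. Of the 13 tested, 9 lay above 0 and 4 below, with a median of 0.11. Scarb1, a receptor that takes up sterol from high-density lipoprotein, stood at 36.9, 40.7 and 45.9 CPM in the controls and at 23.0 and 28.7 CPM after anti-PD-L1. Both anti-PD-L1 pools lay below every control, the log2 fold change was -0.64 ± 0.27, and the unadjusted p of 0.0438 in edgeR gave an adjusted p of 0.9999. Soat1, which esterifies cholesterol for storage, stood at 34.9, 58.1 and 64.0 CPM and at 99.1 and 53.2 CPM, a fold change of 0.62 ± 0.36, with only replicate 1 above the controls, as for the sterol enzymes such as Hmgcs1.

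Of 20 further genes of fatty acid synthesis and activation, 17 were tested, 9 lay above 0 and 8 below, and the median was 0.02. Dgat1, which makes triglyceride, stood at 23.4, 44.0 and 44.8 CPM in the controls and at 43.3 and 81.4 CPM after anti-PD-L1. By CPM only replicate 2 lay above the controls, while both anti-PD-L1 pools did after scaling by TMM factors. The fold change was 0.77 ± 0.34. Acsl3, which activates fatty acids, stood at 0.726 to 4.81 CPM in the controls and at 0 and 0.546 CPM after anti-PD-L1, with a fitted value of -3.03 ± 1.55. Over this wider list, anti-PD-L1 replicate 1 lay below every control for 2 of the 17 (background 35.7%) and above for 5 (background 21.2%). Of 7 further genes tied to liver X receptors and efflux, 3 lay above 0 and 4 below, with a median of -0.26. Lpcat3, which places polyunsaturated chains in phospholipid, stood at 74.9, 62.7 and 68.6 CPM in the controls. After anti-PD-L1 it stood at 42.8 and 50.1 CPM, a fold change of -0.55 ± 0.27. Apoe stood at 30.6, 59.3 and 15.9 CPM in the controls and at 15.3 and 32.1 CPM after anti-PD-L1. Its fold change was -0.56 ± 0.54. It was highest in Control IgG replicate 2, as was the sum of melanoma markers. The part of melanoma and myeloid cells in the Apoe values was not tested.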

How the data were processed

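The measurements are whole-number read counts per gene deposited by the authors without normalization. TopHat, HTSeq and the build mm10 are named, per the submitters' processing notes, and versions, annotation and strand setting are not stated there. RNA of 5000 to 30000 sorted CD8+ CD45.1+ cells was amplified by a Smart-seq2 protocol with 8 cycles and tagmented with 12 cycles, per the labels' protocols. Reads carry no molecular tags and no strand, so limits from counts cover counting error only.

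The 5 counter lines of each file entered neither library sizes nor tests. They included reads without a feature, at 7.46% to 15.2% of all counts, and ambiguous reads, at 1.38% to 1.51%. CPM values are counts scaled by the gene-assigned total. Depths of 9985943 to 12830485 counts put a floor of 3 counts at 0.234 to 0.300 CPM. No library was a copy of another, with chi-square over degrees of freedom of 19.2 to 92.2 between libraries. All genes were fitted in edgeR 4.0.16 (R 4.3.3) with TMM factors, the filterByExpr defaults (minimum count 10, minimum total 15), a quasi-likelihood F-test, two-sided, with Benjamini-Hochberg adjustment over 11299 genes and a threshold of 0.05. Standard errors of fold changes were taken as the fold change over the square root of F. Fold changes are anti-PD-L1 over Control IgG, on the log2 scale. The test was checked on simulated data. Lists were described by counts and medians, with no set test. Exon lengths were computed from the GENCODE vM21 annotation of GRCm38 (mm10), as the union of all annotated exons, which understates the level of genes with many isoforms. Lengths were matched for 22829 genes.

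Of the 149 list and marker symbols, 147 matched a row, 4 of them by an older symbol in the RefSeq table. All 31 genes are reported, ordered by role. For each further list the 2 tested genes of smallest p are named. The genes and lists were chosen with earlier results of these data known. DESeq2 1.42.0, limma-voom (limma 3.58.1), other scalings, no filter, a replicate block and each library left out were tried as alternatives.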

Additional observations from a re-analysis of the deposited data

How the results depend on the processing

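The call of 0 of the 31 genes held in every alternative run, with edgeR under 3 scalings, without the filter, with DESeq2 and with limma-voom. Over all genes, edgeR called 0 higher and 0 lower with the filter (241 at an unadjusted p under 0.05), 5 higher without it, 4 higher in DESeq2 and 1 higher without both libraries numbered 1, none of them among the 31. Another scaling, test or filter changed the direction of 0 of the 30 fold changes. Without Control IgG replicate 1, 7 of 30 changed direction, and without anti-PD-L1 replicate 1, 13 of 30 did. As each library was left out in turn, the median of the sterol enzymes ran from -0.32 to 0.48 and that of the exporters from -2.33 to -0.53. Without both libraries numbered 1, those medians were -0.27 and -0.033, and that of the sensing genes was 0.0017, from a single anti-PD-L1 pool whose spread is assumed to be that of the controls. The fold changes that changed direction there were Hmgcs1 -0.15, Idi1 -0.15, Fdft1 -0.089, Lss -0.30, Msmo1 -0.067, Sc5d -0.071, Dhcr7 -0.20, Scap -0.065, Nr1h2 0.10, Stard4 -0.058, Elovl5 0.12, Fads2 -1.07, Abcg1 0.69. With 1 library left out, the genes that changed direction ranged as follows, on the log2 scale: Hmgcs1 -0.0028 to 0.90, Mvd -0.38 to 0.13, Idi1 -0.35 to 0.74, Fdft1 -0.052 to 0.78, Sqle -0.85 to 0.42, Lss -0.10 to 0.54, Cyp51 -0.75 to 0.20, Msmo1 -0.30 to 1.24, Nsdhl -0.65 to 0.42, Sc5d -0.19 to 0.60, Dhcr7 -0.15 to 0.98, Scap -0.12 to 0.49, Nr1h2 -0.27 to 0.17, Elovl5 -0.080 to 0.058, Scd2 -0.86 to 0.075, Fads2 -0.48 to 0.84, Abcg1 -0.77 to 0.38. The cause was not tested, beyond the loss of 1 or 2 libraries.

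With the replicate number as a block, edgeR called 0 genes, and the median of the fatty acid genes was -0.52. The fold changes that changed direction under the block were Mvd 0.081, Nr1h2 0.065, Abcg1 0.025. The labels do not say that a number marks a shared mouse or day. Deviations from the group means correlated across genes at 0.33 between the libraries numbered 1 and at 0.37 between those numbered 2. With only 2 anti-PD-L1 libraries, their deviations are mirror images, so these values are not separate evidence and cannot decide what a number marks. Control IgG replicate 3 correlated at 0.16 with anti-PD-L1 replicate 2, whose number differs. With CPM scaled by TMM factors, an alternative chosen after seeing the data, 2 of the 30 genes, Insig1 and Fads1, had both anti-PD-L1 pools below every control, against 4 without that scaling, where 9.58% and 10.8% of all tested genes did. Replicate 2 lay above every control for 0 of the 30 against 2, where 21.7% and 23% of all tested genes did.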
